A study of Mus musculus with 16 samples.

Results

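The genes described here are 38 genes of the cell cycle and of DNA replication, out of 21266 genes named on the arrays. They were picked by name: a spot counted where its gene name was that of a member or an older symbol for it (Cdc2a for Cdk1), and the probe with the brightest mean over all arrays stood for a gene that had several. The 38 genes had 62 probes, 19 genes had a single probe, and every gene was on the array. By role, 8 license replication origins (Mcm2 to Mcm7, Cdc6 and Cdt1), 5 belong to the replication fork or supply nucleotides (Pcna, Rrm1, Rrm2, Tyms and Tk1), 4 act between G1 and S phase (Ccne1, Ccne2, E2f1 and Chek1), and 5 are S to M phase cyclins, their kinase and a transcription factor (Ccna2, Ccnb1, Ccnb2, Cdk1 and Foxm1). A further 5 are mitotic kinases or spindle checkpoint genes (Aurka, Aurkb, Bub1, Bub1b and Plk1), 2 work with the anaphase promoting complex (Cdc20 and Ube2c), and 9 act on chromosomes, spindle, kinetochore or cytokinesis.

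Female C57Bl/6 mice received 300 µg of concanavalin A, a lectin of jack beans that brings on a T cell driven hepatitis, and RNA was taken 2 h or 5 h later. Livers at 2 h came from 3 mice given no stem cells (mice 11, 12 and 13) and 3 given stem cells immediately (mice 8, 9 and 10), and livers at 5 h from 3 mice given none (mice 4, 5 and 6) and 3 given stem cells at 3 h (mice 1, 2 and 3). Hepatic inflammatory cells, all at 5 h, came as 2 samples without stem cells (983 and 985) and 2 with stem cells at 3 h (987 and 989). The stem cells were a dose of 100000 into the tail vein, grown in culture after collagenase digestion of inguinal fat from C57Bl/6 mice. Every group had received concanavalin A, so no resting liver was measured. The labels do not say how the inflammatory cells were isolated or whether each sample came from a separate mouse, so p-values there reflect only how far the samples spread. For the 2 samples of inflammatory cells without stem cells, a source label also mentions stem cells. Their treatment label and their description name none, and they count as untreated here.

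A dividing cell first loads the MCM helicase on its origins with Cdc6 and Cdt1, then fires them in S phase under cyclin E and cyclin A kinases, and then enters mitosis under cyclin B and Cdk1. E2F factors switch on most genes of the first set, while a complex that binds CHR elements, often beside CCAAT boxes, switches on most genes of the second. Hepatocytes in an adult liver are nearly all quiescent, while lymphocytes and marrow-derived cells can divide after activation.

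Promoter sequences are shown because the genes' regulation is known to run through these elements. RefSeq promoter windows (build GRCm38.p6, 250 bases before to 50 after the gene start) matched 32 of the 38 genes by symbol, among 27025 genes with a window, and a gene with several windows counted where any held a match. The E2F forms TTTCCCGC, TTTGGCGC, TTTCGCGC and TTTGCCGC, on either strand, occurred in 7 of the 32 (21.9%) against 2.6% of all windows, and these 7 were Cdc6, Cdt1, Mcm3, Mcm5, Mcm6, Mcm7 and Cdk1. The CHR forms TTTGAA and TTCGAA occurred in 15 (46.9%) against 21.7% of all windows, among them Ccnb2, Cdk1, Plk1, Bub1, Top2a and Mki67. CCAAT occurred in 23 (71.9%) against 41.1%. None of the 3 elements was found in the windows of 7 genes: Birc5, Ccne1, Chek1, E2f1, Nusap1, Tk1 and Tyms. A match is a run of letters and not a measured binding site. The stretches below run 5′ to 3′ on the gene's strand, from 180 bases before to 30 bases into the gene, with matches to any of the 3 elements in capitals, and overlapping E2F matches run together in Mcm5 and Mcm6. Mcm5 (chr8:75109329-75109538, plus strand) and Mcm6 (chr1:128359676-128359885, minus strand) encode helicase subunits and show E2F and CCAAT letters without CHR letters.
Mcm5: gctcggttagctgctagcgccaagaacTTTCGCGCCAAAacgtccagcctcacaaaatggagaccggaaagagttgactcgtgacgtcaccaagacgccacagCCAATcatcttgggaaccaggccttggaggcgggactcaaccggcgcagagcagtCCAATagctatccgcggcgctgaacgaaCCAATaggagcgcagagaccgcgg
Mcm6: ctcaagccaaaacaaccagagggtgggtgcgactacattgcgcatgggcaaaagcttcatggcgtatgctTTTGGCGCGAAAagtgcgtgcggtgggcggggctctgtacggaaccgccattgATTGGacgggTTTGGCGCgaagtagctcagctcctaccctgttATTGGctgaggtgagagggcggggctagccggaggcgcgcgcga
Cdk1 (chr10:69352883-69353092, minus strand), the mitotic kinase, and Ccnb2 (chr9:70421525-70421734, minus strand), one of its cyclins, show CHR letters close to the gene start with CCAAT letters before them.
Cdk1: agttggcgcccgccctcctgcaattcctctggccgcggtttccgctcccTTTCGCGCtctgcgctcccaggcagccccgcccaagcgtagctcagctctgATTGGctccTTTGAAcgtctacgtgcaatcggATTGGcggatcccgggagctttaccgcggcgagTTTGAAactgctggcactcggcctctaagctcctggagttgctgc
Ccnb2: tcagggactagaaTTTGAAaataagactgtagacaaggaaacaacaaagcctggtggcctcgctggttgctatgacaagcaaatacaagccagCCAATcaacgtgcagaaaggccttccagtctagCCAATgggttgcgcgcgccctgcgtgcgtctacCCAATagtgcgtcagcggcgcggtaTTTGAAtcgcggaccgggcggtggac
Tk1 (chr11:117825985-117826194, minus strand), thymidine kinase, and Tyms (chr5:30073596-30073805, minus strand), thymidylate synthase, show no match. They are shown because the inflammatory cells had lower signals than the liver for both.
Tk1: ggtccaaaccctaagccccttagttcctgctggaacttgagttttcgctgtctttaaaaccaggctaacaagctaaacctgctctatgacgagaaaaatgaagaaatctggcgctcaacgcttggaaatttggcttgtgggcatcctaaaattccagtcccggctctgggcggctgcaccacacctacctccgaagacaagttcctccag
Tyms: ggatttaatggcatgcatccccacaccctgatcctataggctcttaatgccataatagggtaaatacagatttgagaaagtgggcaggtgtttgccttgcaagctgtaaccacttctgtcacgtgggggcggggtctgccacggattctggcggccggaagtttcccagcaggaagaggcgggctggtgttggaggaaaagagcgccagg

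All 16 arrays were 1-colour Agilent mouse arrays, and levels are log2 of the processed signal over the 75th percentile of that signal on the same array, so 0 is the array's 75th percentile. They have no common scale between probes, and no gene's level is set against another's. Between 52.1% and 62.5% of probes were well above background, that is, brighter than the scanner software's background limit, and no spot was saturated. Differences are log2 differences of group means ± standard error (SE) from limma fits across all genes tested, called at a Benjamini-Hochberg adjusted p under 0.05. The number of arrays, 2 or 3 a group, limits their precision. In the livers 30 of the 38 genes passed the filter on dim probes. Of the other 8, Cdc6 was well above background on 2 of 12 livers and Bub1b on 1, while Ccne2, Chek1, Ccnb1, Aurkb, Bub1 and Kif23 were so on none, and these 8 have no tests between livers. Of the 30, Kif11 was well above background on only 3 of 12 livers, and Cdk1 and Top2a on 5 each, so their liver values lie mostly near background. In the inflammatory cells all 38 passed.

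**Figure D1:**
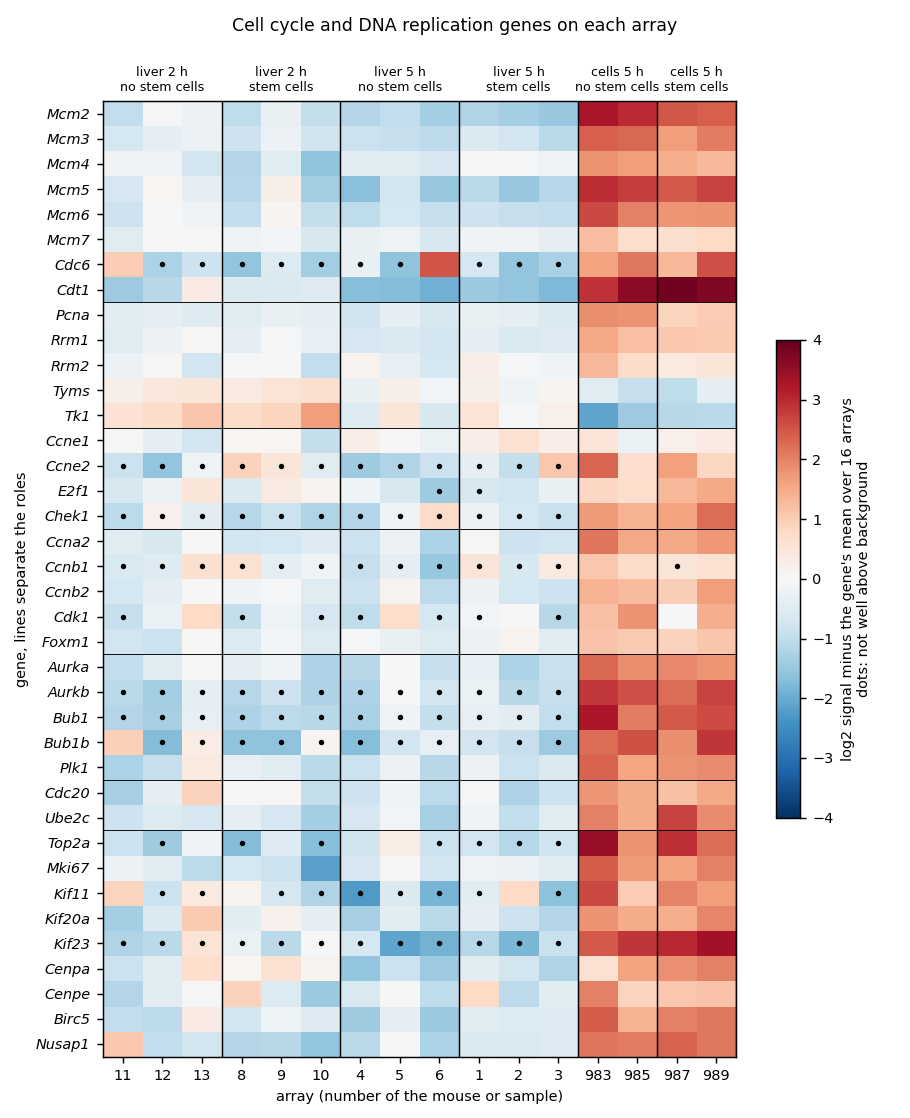
Level of each of the 38 genes (rows, grouped by role) on each of the 16 arrays (columns, by group), as log2 signal minus the gene's own mean over the arrays; dots mark probes not well above background and colours end at 4 on either side. The 4 columns of inflammatory cells are red for nearly all genes, Tk1 and Tyms are blue there, and 6 genes are dotted in every liver.

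Most cell cycle genes were higher in inflammatory cells than in whole liver at 5 h. Among the 30 genes that passed the filter on dim probes in both tissues, 27 were higher and 2 lower without stem cells, where 31.7% of the 13108 such genes were higher and 32.3% lower. Their median difference was 2.45, against 0.03 over those genes. With stem cells 24 of the 30 were higher and 2 lower, against 30.2% and 36% of such genes, and the median was 2.13 against -0.14. The other 8 genes entered the fit mostly or wholly through the cell arrays, where they are bright, so the filter favoured that direction and they add no support. With them the counts were 34 higher and 2 lower of 38 without stem cells (29.4% and 31.8% of all 16207 genes tested) and 30 higher and 2 lower with them (28.4% and 35.7%). These livers and cells share no array between the 2 comparisons, but both rest on 1 fit. The inflammatory cells lay on a slide of their own, so tissue and slide cannot be told apart. With normexp background correction, which draws dim signals together, the counts were 24 and 22 called in place of 36 and 32, and the medians over the 38 were 1.46 and 1.20 in place of 2.49 and 2.33.

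Among the licensing genes all 7 that passed in both tissues were higher in both comparisons. Cdt1, the loading factor whose probe lies at chr8:125459083-125459142 (mm8), had levels of -0.71, -0.77 and -0.93 in untreated 5 h livers and 3.88 and 4.56 in untreated cells. After stem cells it stood at -0.50, -0.62 and -0.78 in liver and at 4.84 and 4.71 in cells. The groups were far apart, by 5.03 ± 0.40 (32.6-fold, adjusted p = 1.69e-07, limma) without and 5.40 ± 0.40 (42.3-fold) with stem cells. Mcm2, a helicase subunit, read -2.42, -2.25 and -2.61 in untreated liver and 2.01 and 1.73 in untreated cells, a difference of 4.30 ± 0.28 (19.7-fold, limma adjusted p = 2.96e-08). Its stem cell groups read -2.45, -2.61 and -2.78 in liver and 1.22 and 1.13 in cells, which is 13.8-fold. Mcm5 was 17.8-fold higher in untreated cells (levels 2.57 and 2.39 against -2.04, -1.10 and -1.88) and 14.2-fold higher with stem cells. Mcm3 was 9.73-fold and Mcm6 9.29-fold higher without stem cells, and 6.29-fold and 6.45-fold higher with them. Mcm4 and Mcm7, the other helicase subunits, were 4.84-fold and 2.54-fold higher without stem cells and 2.74-fold and 1.94-fold higher with them. So all 6 subunits of the helicase were called in both comparisons, though under normexp the call of Mcm7 with stem cells was lost. Cdc6, which recruits the helicase, was called only with stem cells, at least 1.86-fold higher (adjusted p = 0.012). Without stem cells its difference was 1.67 ± 0.96 (adjusted p = 0.152), and the untreated liver of mouse 6, at -2.54, lay above both untreated cell samples at -3.45 and -2.94.

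Folds given as "at least" belong to probes that no array of the dimmer group showed well above background. They compare the brighter group's mean with the dim group's mean of, per array, the higher of the lowest signal among probes well above background and the probe's own signal.

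The fork and nucleotide genes split. Pcna, the sliding clamp of the replication fork, read 2.45, 2.85 and 2.60 in untreated liver and 5.09 and 5.05 in untreated cells, 5.41-fold higher (2.44 ± 0.17, limma adjusted p = 4.36e-08). The stem cell groups read 2.94, 2.85 and 2.67 in liver and 4.13 and 4.26 in cells, 2.60-fold higher (1.38 ± 0.17). Rrm1, the large subunit of ribonucleotide reductase, was 4.13-fold higher without and 2.98-fold higher with stem cells. Rrm2, its small subunit, was 2.50-fold higher without stem cells (1.32 ± 0.35, lost under normexp and without sample 983), while with stem cells the difference was 0.42 ± 0.35 (adjusted p = 0.305). Tk1 went the other way: its levels were 0.87, 1.88 and 0.74 in untreated liver and -0.71 and -0.08 in untreated cells. In the stem cell groups they were 1.93, 1.35 and 1.58 against 0.26 and 0.30. Every cell sample lay below every 5 h liver, and the differences were -1.56 ± 0.37 (2.95-fold lower, adjusted p = 0.00258) and -1.34 ± 0.37 (2.53-fold lower, adjusted p = 0.00666). Tyms read 0.64, 1.15 and 0.80 in untreated liver against 0.45 and 0.01 in untreated cells. In the presence of stem cells it read 1.16, 0.77 and 1.03 against -0.11 and 0.57. It was 1.55-fold lower without (-0.63 ± 0.24, adjusted p = 0.0384) and 1.69-fold lower with stem cells (-0.76 ± 0.24, adjusted p = 0.0153). The call without stem cells was lost under 6 other settings and on leaving out mouse 5, mouse 6 or sample 985. That with stem cells was lost under normexp, with only the arrays compared, and without mouse 1 or sample 987. A dimmer Tyms probe differed by -0.73 and -0.78.

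Of the G1 to S genes only E2f1 and Ccne1 passed the filter in both tissues, and E2f1 was higher in both comparisons. E2f1, the transcription factor of this transition, read -3.64, -4.12 and -4.90 in untreated liver and -2.66 and -2.77 in untreated cells, 2.84-fold higher (1.51 ± 0.39). It was 3.95-fold higher with stem cells (1.98 ± 0.39, limma adjusted p = 0.000651). Both E2f1 calls were lost under normexp. Ccne2, a cyclin of S phase entry, was not well above background in any liver and was at least 2.03-fold higher in untreated cells (levels -2.44 and -4.13). With stem cells it read -3.13 and -3.96 in cells and was not called (adjusted p = 0.0936). Chek1, the replication checkpoint kinase, was at least 1.42-fold and at least 1.50-fold higher. Ccne1, the other cyclin E, was called in neither comparison: 0.13 ± 0.35 without and -0.12 ± 0.35 with stem cells. Its levels overlapped, at -0.23, -0.51 and -0.75 in untreated liver against 0.02 and -0.75 in untreated cells.

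All 4 S to M phase genes that passed in both tissues were higher without stem cells, and 3 of the 4 with them. Ccna2, cyclin A, read -2.70, -2.07 and -3.10 in untreated liver and 0.28 and -0.31 in untreated cells, 6.11-fold higher (2.61 ± 0.34). Its fold was 4.49 with stem cells. Ccnb1, cyclin B1, was not well above background in any liver but was so in 3 of 4 cell samples. It was at least 1.55-fold higher in untreated cells, and with stem cells its difference was 0.47 ± 0.47 (adjusted p = 0.393). Ccnb2 was 3.78-fold and 3.79-fold higher. Cdk1 read -4.42, -2.70 and -4.11 in untreated liver and -2.22 and -1.60 in untreated cells, 3.57-fold higher (1.83 ± 0.61, adjusted p = 0.0197). This call was lost under normexp, the mean of probes and array weights, and without mouse 4, mouse 6 or sample 985. With stem cells it differed by 1.16 ± 0.61 (adjusted p = 0.116), and sample 987 at -3.38 lay next to the brightest of its livers at -3.42. Foxm1, a transcription factor of mitotic genes, was 2.65-fold and 2.27-fold higher, and both calls were lost under normexp.

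Of the mitotic kinases and checkpoint genes Plk1 and Aurka passed the filter in both tissues, and both were higher in both comparisons. Plk1, polo-like kinase, read -2.25, -1.63 and -2.50 in untreated liver and 0.96 and 0.19 in untreated cells, 6.50-fold higher (2.70 ± 0.45, limma adjusted p = 0.000157), and was 5.29-fold higher with stem cells. Aurka, the spindle pole kinase, was 6.81-fold and 6.42-fold higher. Aurkb, the kinase of the chromosomal passenger complex, was dim in every liver, like Bub1, and in the cells it was at least 3.83-fold higher without and at least 2.66-fold higher with stem cells. For the spindle checkpoint genes Bub1 and Bub1b the bounds were at least 3.49-fold and at least 4.45-fold without stem cells, and at least 2.67-fold and at least 3.53-fold with them. Cdc20 and Ube2c, which direct the destruction of cyclin B, were 4.94-fold and 5.50-fold higher without stem cells, and 4.24-fold and 7.14-fold higher with them.

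All 8 chromosome and spindle genes that passed in both tissues were higher without stem cells, and 7 of the 8 with them. Mki67, the proliferation marker that coats mitotic chromosomes, read -0.08, 0.65 and -0.15 in untreated liver and 3.02 and 2.29 in untreated cells, 5.70-fold higher (2.51 ± 0.42, limma adjusted p = 0.000186). Its fold was 4.28 with stem cells. Top2a, topoisomerase II, read -4.01, -2.90 and -4.07 in untreated liver and 0.27 and -1.40 in untreated cells, 8.57-fold higher (3.10 ± 0.55), and at least 10.1-fold higher with stem cells. Birc5, the inhibitor of apoptosis protein of the passenger complex, read -0.92, 0.09 and -0.99 in untreated liver and 2.89 and 1.87 in untreated cells, 7.95-fold higher, and was 5.97-fold higher with stem cells. Kif23, a kinesin of cytokinesis, was dim in every liver and at least 7.32-fold higher in untreated cells, at least 8.67-fold with stem cells. Kif11, the kinesin of spindle assembly, was at least 3.30-fold higher without and 4.78-fold higher with stem cells. Only 1 of the 3 treated livers showed it well above background. Its call with stem cells was lost under normexp, with the mean of probes and without mouse 3, sample 987 or sample 989. Nusap1, Kif20a and Cenpa, which act on spindle, cytokinesis and centromere, were 7.51-fold, 6.02-fold and 5.32-fold higher without stem cells and 6.96-fold, 5.58-fold and 6.55-fold higher with them. Cenpe, a kinetochore kinesin, was 3.96-fold higher without stem cells (adjusted p = 0.0204, lost with array weights and without mouse 6 or sample 983), and with them it differed by 1.35 ± 0.67 (adjusted p = 0.0948). Between the 2 untreated cell samples Top2a, Kif11, Cenpe, Birc5 and Cenpa lay over 1 log2 unit apart, and sample 983 was the higher for each of them but Cenpa.

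**Figure D2:**
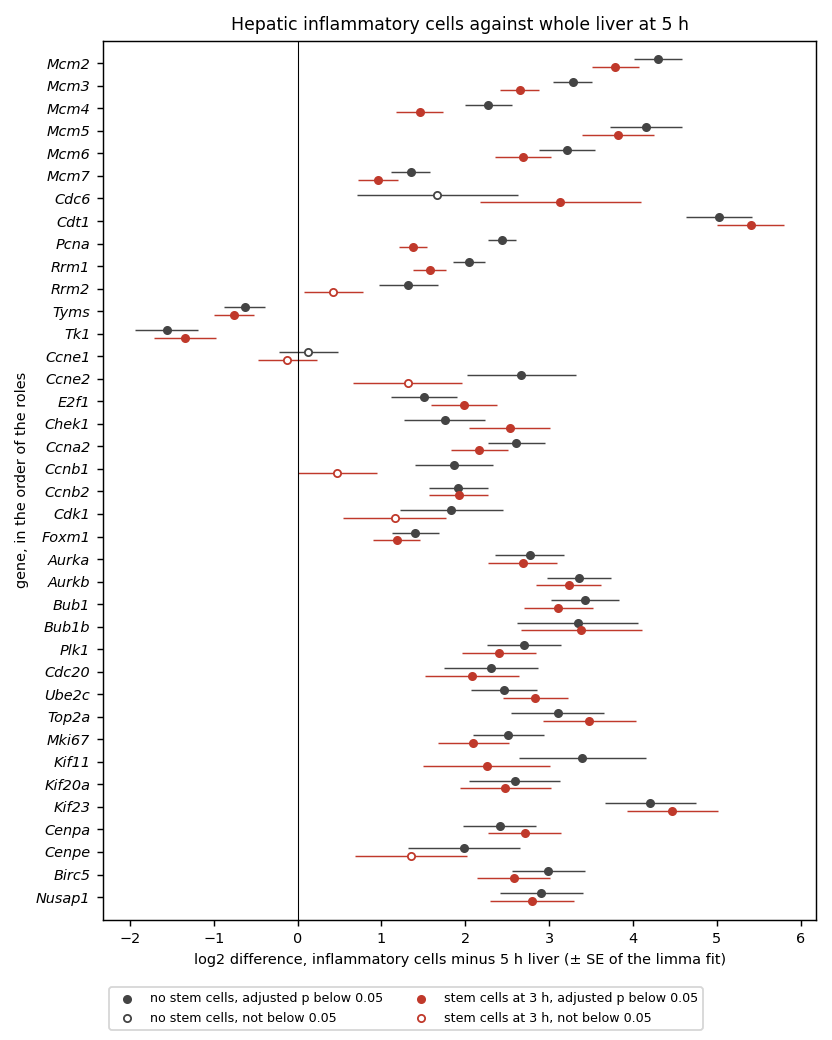
Difference between inflammatory cells and 5 h liver for each of the 38 genes on the log2 scale, with its SE, without stem cells and with them; filled points have an adjusted p below 0.05. Cdt1 and Mcm2 lie far to the right, most other genes lie between 1 and 4, and Tk1 and Tyms lie left of 0 in both comparisons.

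Other cell type markers moved with this comparison. Marker lists were summed as linear signal in units of the array's 75th percentile. All 10 hepatocyte markers on the array were lower in untreated cells, and their sum ran from 97.6 to 201 there against 4790 to 6260 in untreated 5 h liver, although Alb (albumin) was still well above background in every cell sample. T cell markers were higher for 8 of 9 tested (sum 64.8 to 80.0 against 1.99 to 2.40), B cell markers for 8 of 8 (105 to 272 against 1.01 to 1.17), NK cell markers for 8 of 8 (67.1 to 199 against 3.52 to 4.96) and dendritic cell markers for 7 of 8 (454 to 961 against 26.9 to 30.8). Neutrophil markers were higher for 3 of 10 (143 to 216 against 143 to 205). Macrophage markers were higher for 1 and lower for 2 of 10 (38.1 to 80.1 against 65.4 to 104). Erythroid markers were higher for 4 and lower for 1 of 6 tested (1120 to 1380 against 203 to 253). With stem cells hepatocyte markers were lower for 10 of 10, and T cell, B cell, NK cell and dendritic cell markers higher for 8 of 9, 8 of 8, 8 of 8 and 7 of 8. Neutrophil markers were then higher for 6 of 10 (620 to 670 against 190 to 242) and macrophage markers for 3 of 10, with none lower (138 to 171 against 98.7 to 121), so the macrophage sum lay above that of liver with stem cells but not without them. Ncr1, which defines NK cells, was not well above background in any 5 h liver and was so in all 4 cell samples. Stellate cell markers were lower for 8 and higher for 1 of 10 (59.1 to 79.6 against 91.7 to 109), and endothelial markers lower for 5 of 8 (5.21 to 9.21 against 21.0 to 29.4). The part of this cell mixture in the differences of the cell cycle genes was not tested. In bulk RNA such as this, more cells of a type and more RNA per cell cannot be told apart.

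In livers without stem cells, none of the 30 genes tested passed the threshold between 2 h and 5 h, where 15.7% of the 14584 genes tested did. Most of the 30 leaned down: 24 were lower at 5 h, against 56% of all genes, and the median difference was -0.41, against -0.07. The 30 genes varied together from mouse to mouse (mean pairwise correlation 0.37), so their directions are not independent. An unadjusted p under 0.05 was reached by 9 genes, all lower, where 18.9% of all genes did so in that direction. The groups did not overlap for 7 genes, all lower at 5 h, against 20.7% of all genes. The livers of each time point stood on the same 3 slides, and 9 of the 30 genes were lower at 5 h on all 3, which 30% of all genes were, while none was higher on all 3.

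The smallest p-values among them belonged to Tk1, Cenpa and Cdt1. Tk1 (probe at chr11:117631881-117631940, mm8) read 1.97, 2.11 and 2.49 at 2 h and 0.87, 1.88 and 0.74 at 5 h, without overlap, a difference of -1.02 ± 0.34 (limma adjusted p = 0.0653). On the 3 slides it differed by -1.24, -0.09 and -1.75, so mouse 5 at 1.88 made 1 slide nearly flat. Cenpa, the centromere histone, read -2.48, -2.06 and -0.92 at 2 h and -3.20, -2.47 and -3.07 at 5 h, a difference of -1.10 ± 0.38 (adjusted p = 0.0753), with mouse 11 at 2 h and mouse 5 at 5 h nearly level. Cdt1 read -0.47, -0.14 and 1.32 at 2 h and -0.71, -0.77 and -0.93 at 5 h, -1.04 ± 0.36 (adjusted p = 0.0765), with mouse 13 well above its group. Mcm2 read -2.23, -1.33 and -1.50 at 2 h and -2.42, -2.25 and -2.61 at 5 h, -0.74 ± 0.26 (adjusted p = 0.079). Mcm5 differed by -0.98 ± 0.41, Mcm3 by -0.51 ± 0.20, Rrm1 by -0.44 ± 0.16 and Tyms by -0.46 ± 0.17. Pcna stood at -0.18, with a narrow interval (95% interval -0.48 to 0.12). Others had wider intervals that held 0: Rrm2 at 0.02 (-0.68 to 0.73), Plk1 at -0.13 (-1.04 to 0.77), Mki67 at 0.13 (-0.71 to 0.98) and Cdk1 at -0.21 (-1.39 to 0.97). Ccne1 stood at 0.36 (-0.31 to 1.04) and Top2a at 0.35 (-0.60 to 1.31), on the positive side of 0, and E2f1 at -0.60 (-1.44 to 0.23), Ccna2 at -0.41 (-1.08 to 0.26) and Birc5 at -0.53 (-1.38 to 0.31) on the negative side. The count of 0 rose to 4 when mouse 11 was left out (Cdt1, Cenpa, Mcm2 and Rrm1) and to 2 when mouse 5 was (Tk1 and Tyms). Endothelial markers were lower at 5 h for 4 of 8 (sum 42.9 to 57.8 at 2 h, 21.0 to 29.4 at 5 h), the B cell sum went from 1.73 to 5.07 down to 1.01 to 1.17, and the neutrophil sum from 14.8 to 83.8 up to 143 to 205. Their part in the leaning of the cell cycle genes was not tested.

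In livers with stem cells, Mcm4 rose between 2 h and 5 h and was the only one of the 30 genes past the threshold. Of all genes tested, 8.77% were called higher and 9.67% lower. Mcm4, a subunit of the helicase core whose probe lies at chr16:15537857-15537916 (mm8), read 0.59, 1.27 and 0.15 at 2 h and 1.79, 1.72 and 1.57 at 5 h. All 3 later livers lay above all 3 earlier ones, and mouse 9 at 2 h lay nearest to them. The difference was 1.03 ± 0.26 (2.04-fold, limma adjusted p = 0.0234), and on the 3 slides it was 1.20, 1.42 and 0.45. The call was lost, with adjusted p from 0.0566 to 0.08, on leaving out any of mice 8, 10, 1, 2 or 3, and at 0.0522 with only the arrays compared in the fit; without mouse 10 the difference was 0.76. The other 5 helicase genes did not pass, with Mcm2 at -0.61 (-1.19 to -0.03) and Mcm5 at -0.49 (-1.40 to 0.43). Both groups were sampled 2 h after their stem cells, which were given at once in the earlier group and at 3 h in the later one.

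The differences of the 30 genes lay on both sides of 0, 14 higher (Mcm4 among them) and 16 lower, with a median of -0.03 against -0.08 over all genes. Next to Mcm4 the smallest p-values belonged to Cdt1 and Cenpa. Cdt1 read 0.39, 0.38 and 0.47 at 2 h and -0.50, -0.62 and -0.78 at 5 h, a tight pair of groups that differed by -1.05 ± 0.36 (limma adjusted p = 0.0702). Cenpa read -1.54, -1.01 and -1.48 at 2 h and -2.04, -2.36 and -2.81 at 5 h, -1.06 ± 0.38 (adjusted p = 0.078). The same time difference for Cdt1 and Cenpa without stem cells was -1.04 and -1.10, from other mice. Mki67 read -0.10, -0.26 and -1.58 at 2 h and 0.40, 0.36 and 0.19 at 5 h, 0.96 ± 0.38 (adjusted p = 0.106), and mouse 10 lay far below its group. Tk1 differed by -0.86 and Tyms by -0.46. Pcna at -0.03 (95% interval -0.34 to 0.27), Rrm2 at 0.37 (-0.33 to 1.08), Ccne1 at 0.65 (-0.03 to 1.33), E2f1 at -0.52 (-1.36 to 0.31), Ccna2 at 0.15 (-0.53 to 0.82), Cdk1 at 0.20 (-0.98 to 1.38), Plk1 at 0.07 (-0.83 to 0.98), Top2a at 0.42 (-0.53 to 1.38) and Birc5 at -0.02 (-0.87 to 0.82) all had intervals over 0. Erythroid markers were called higher at 5 h for 3 of 6 (sum 70.8 to 95.4 at 2 h, 229 to 285 at 5 h), and the neutrophil sum went from 35.9 to 102 up to 190 to 242. The NK cell sum went from 1.23 to 1.44 up to 3.37 to 4.76, and the B cell sum from 2.66 to 2.93 down to 1.49 to 1.69. Their part in the rise of Mcm4 was not tested.

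**Figure D3:**
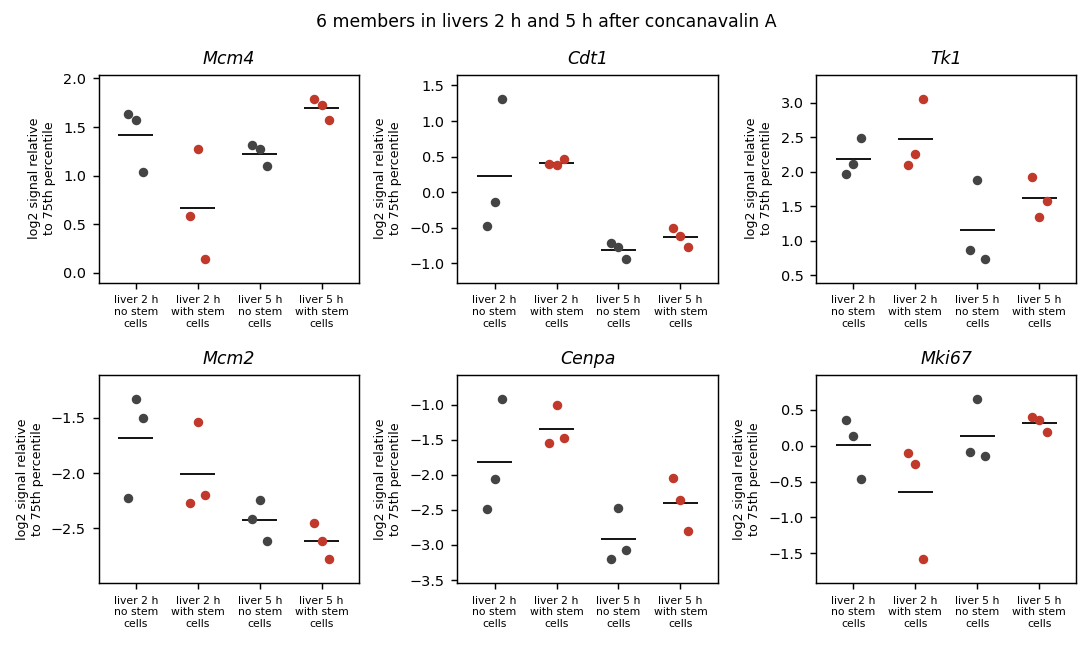
Levels of Mcm4, Cdt1, Tk1, Mcm2, Cenpa and Mki67 in the 12 livers, on the log2 scale described above, with each mouse as a point and the group mean as a line. The mean of Mcm4 is highest in the 5 h livers with stem cells (1.57 to 1.79), whose range meets that of the untreated 2 h livers (1.04 to 1.64), and Cdt1 lies below -0.4 in every 5 h liver.

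Stem cells changed none of the 30 genes in the liver at either time by the test. At 2 h, 0.0274% of the 14584 genes were called in either direction, and the median over the 30 was -0.05 against 0.08 over all genes; it ran from -0.28 to 0.20 over the other settings tried. Mcm4, with the smallest p, read 1.64, 1.57 and 1.04 without and 0.59, 1.27 and 0.15 with stem cells, overlapping groups that differed by -0.74 ± 0.26 (limma adjusted p = 0.822). Nusap1, a spindle protein, read -1.22, -3.29 and -3.04 without and -3.49, -3.43 and -3.87 with stem cells, -1.08 ± 0.48, and mouse 11 alone carried most of that gap. Mki67 differed by -0.65 ± 0.38 (95% interval -1.50 to 0.19). An unadjusted p under 0.05 was reached by 2 of the 30 genes, both lower, and by 378 genes higher and 438 lower of all tested. Pcna at 0.04 (-0.27 to 0.34) and Mcm2 at -0.32 (-0.90 to 0.26) had narrow intervals, while those of Cdk1 at -0.49 (-1.67 to 0.69) and Top2a at -0.51 (-1.47 to 0.44) were wide. Mcm5 at -0.45 (-1.36 to 0.46), Ccna2 at -0.30 (-0.97 to 0.37), Rrm2 at -0.05 (-0.75 to 0.66), Ccne1 at 0.11 (-0.57 to 0.78), E2f1 at 0.10 (-0.73 to 0.94), Plk1 at -0.03 (-0.94 to 0.88) and Birc5 at 0.07 (-0.77 to 0.92) lay between these. Livers without stem cells at 2 h always lay at position 1 of their slide and those with stem cells at position 2, so treatment and position cannot be told apart. All 2 h livers lay at positions 1 and 2 and all 5 h livers at 3 and 4, so time and position cannot be told apart either, for the rise of Mcm4 as for the rest. Among the cell arrays untreated samples lay at positions 1 and 2 and treated ones at 3 and 4. Without mouse 13, Cdt1 was the 1 gene of the 30 called, and over all genes the count went from 4 to 476. With array weights 291 genes were called, none of the 30.

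At 5 h, 0.0343% of all genes were called and none of the 30. Here 24 of the 30 were higher with stem cells, against 60.2% of all genes, and their median was 0.17 against 0.08. As these genes varied together from mouse to mouse, the count does not come from independent genes. Mcm4 read 1.31, 1.27 and 1.10 without and 1.79, 1.72 and 1.57 with stem cells, without overlap, 0.47 ± 0.26, and it was higher on all 3 slides (0.48, 0.30 and 0.62). Ccne1 read -0.23, -0.51 and -0.75 without and -0.22, 0.14 and -0.21 with stem cells, also without overlap though by a small gap, 0.40 (95% interval -0.28 to 1.07). These were the 2 genes of the 30 without overlap, both higher, against 12.8% of all genes in that direction. Kif11, near background in most of these livers, differed by 1.14 ± 0.68. Birc5 differed by 0.58 ± 0.38, and there mouse 5 at 0.09 lay above all 3 treated livers. No gene of the 30 reached an unadjusted p under 0.05, which 1063 genes higher and 745 lower did. Pcna at 0.19 (95% interval -0.12 to 0.49), Mcm2 at -0.19 (-0.77 to 0.39), Mcm5 at 0.05 (-0.86 to 0.96), Rrm2 at 0.30 (-0.40 to 1.01), E2f1 at 0.18 (-0.65 to 1.02) and Ccna2 at 0.26 (-0.41 to 0.93) had intervals that held 0. So had Cdk1 at -0.08 (-1.26 to 1.10), Plk1 at 0.18 (-0.73 to 1.08), Mki67 at 0.18 (-0.67 to 1.02) and Top2a at -0.44 (-1.40 to 0.51). The difference between the stem cell effects at 5 h and at 2 h was called for none of the 30 and for 0.0137% of all genes, with 326 higher and 346 lower at an unadjusted p under 0.05. Mcm4, the only one of the 30 at that level, had a difference of 1.21 ± 0.37 (adjusted p = 0.817). These liver comparisons share groups with the time comparisons and are not independent of them.

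In the inflammatory cells stem cells changed none of the 38 genes by the test, and 0.0141% of 14152 genes (2 genes), with 2 arrays against 2. That share of all genes was unstable: without sample 985 the test called 2243 genes, none of the 38, and with normexp 1062 genes, of the 38 only Pcna. The median over the 38 was -0.11 against 0.09 over all genes, with 13 genes higher and 25 lower. It was 0.12 without sample 983 and -0.42 without sample 985, so its sign rested on single samples. The 2 groups did not overlap for 14 of the 38, 5 higher and 9 lower, against 52.7% of all genes. Pcna, with the smallest p, read 5.09 and 5.05 without and 4.13 and 4.26 with stem cells, -0.87 ± 0.34 (95% interval -1.69 to -0.06, limma adjusted p = 0.256). It was the only gene of the 38 with an unadjusted p under 0.05, which 1132 genes higher and 1441 lower reached. Mcm2 read 2.01 and 1.73 without and 1.22 and 1.13 with stem cells, -0.70 (-1.53 to 0.14), and E2f1 read -2.66 and -2.77 against -2.15 and -1.96, 0.66 (-0.16 to 1.48). Neither pair of groups overlapped. Of the others, Mcm5 lay at -0.28 (-1.12 to 0.56), Rrm2 at -0.59 (-1.50 to 0.31), Ccna2 at -0.19 (-1.10 to 0.73), Ccnb1 at -0.37 (-1.21 to 0.48) and Cdk1 at -0.75 (-2.11 to 0.60). Top2a at -0.06 (-1.55 to 1.42), Mki67 at -0.24 (-1.23 to 0.75), Plk1 at -0.12 (-1.09 to 0.85), Birc5 at 0.17 (-0.91 to 1.25), Ccne1 at 0.15 (-0.83 to 1.12) and Ccne2 at -0.26 (-1.79 to 1.28) had intervals of about 1 log2 unit or more to each side. The neutrophil marker sum was 143 to 216 without and 620 to 670 with stem cells, and that of macrophages 38.1 to 80.1 and 138 to 171. Their part in the values of the cell cycle genes was not tested.

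**Figure D4:**
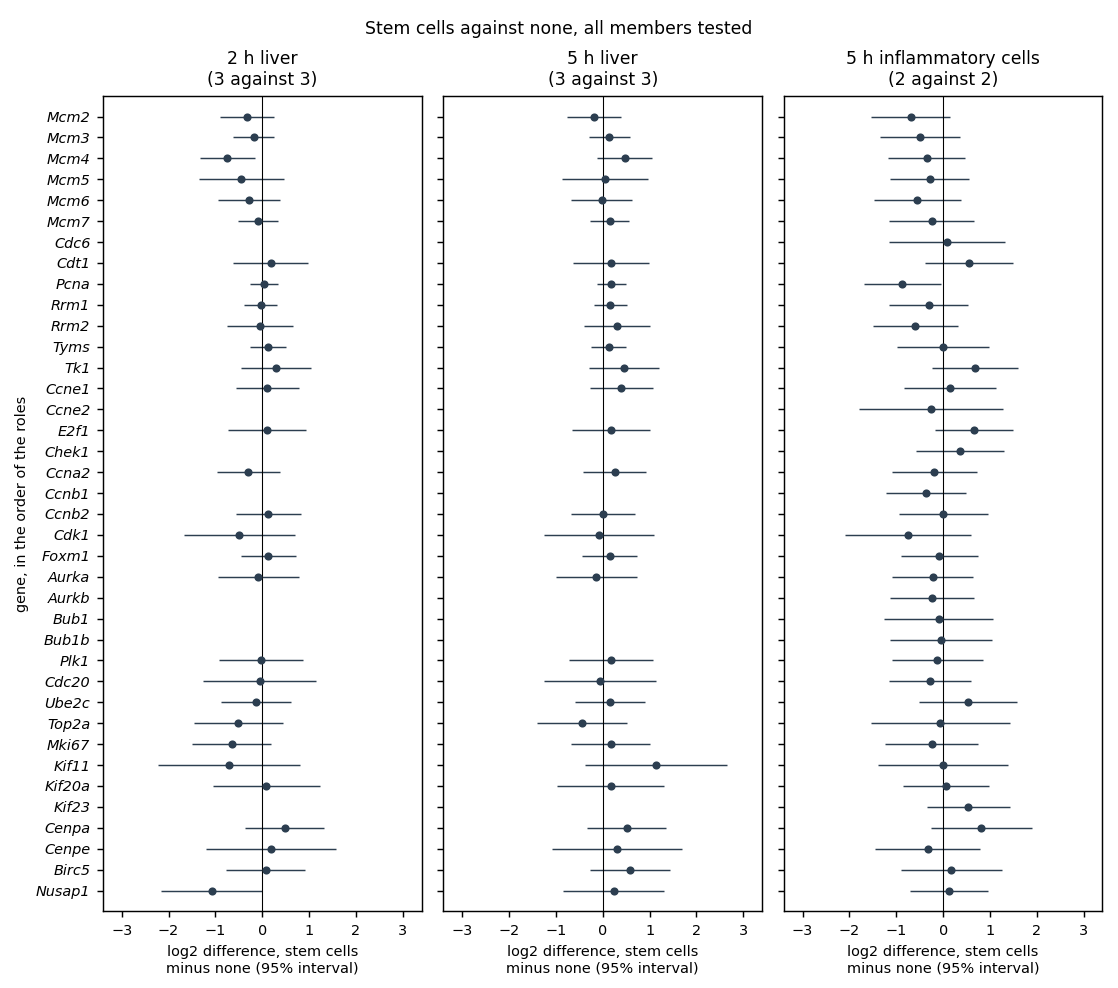
Difference between stem cell treated and untreated samples for each gene on the log2 scale with its 95% interval, in 2 h liver, 5 h liver and inflammatory cells. No adjusted p is below 0.05, and most intervals hold 0; Pcna in the inflammatory cells (-0.87) and Mcm4 in 2 h liver (-0.74) lie left of it.

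The stem cell effect differed between inflammatory cells and 5 h liver for Pcna, the only one of the 38 genes, where 2.26% of all genes did (81 higher and 286 lower in the cells). Pcna's effect was 0.19 in liver and -0.87 in the cells, and the difference was -1.06 ± 0.24 (95% interval -1.57 to -0.54, limma adjusted p = 0.0384). The 4 groups behind it read 2.45 to 2.85, 2.67 to 2.94, 5.05 to 5.09 and 4.13 to 4.26, and the step down in the cells was larger than the spread in any of them. The call was lost under normexp background correction (adjusted p = 0.334), quantile normalization (0.0513), no filter (0.077), the mean of a gene's probes (0.0533) and array weights (0.124), and on leaving out any of mice 1, 2, 3, 4 and 6 or samples 983, 987 and 989. Ccnb1 had a difference of -1.39 ± 0.66 and Mcm4 of -0.82 ± 0.40, neither called. Neither Ccnb1 nor Ccne2 was well above background in any liver, so the liver part of their differences compares signals near background. For Ccnb1 the 5 h liver means were -5.54 without and -4.51 with stem cells. Of the other genes described, Ccne2 lay at -1.35 (-3.34 to 0.63), Rrm2 at -0.90 (-1.97 to 0.18), Mcm2 at -0.51 (-1.37 to 0.36), Cdk1 at -0.68 (-2.56 to 1.21) and E2f1 at 0.48 (-0.73 to 1.68).

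**Figure D5:**
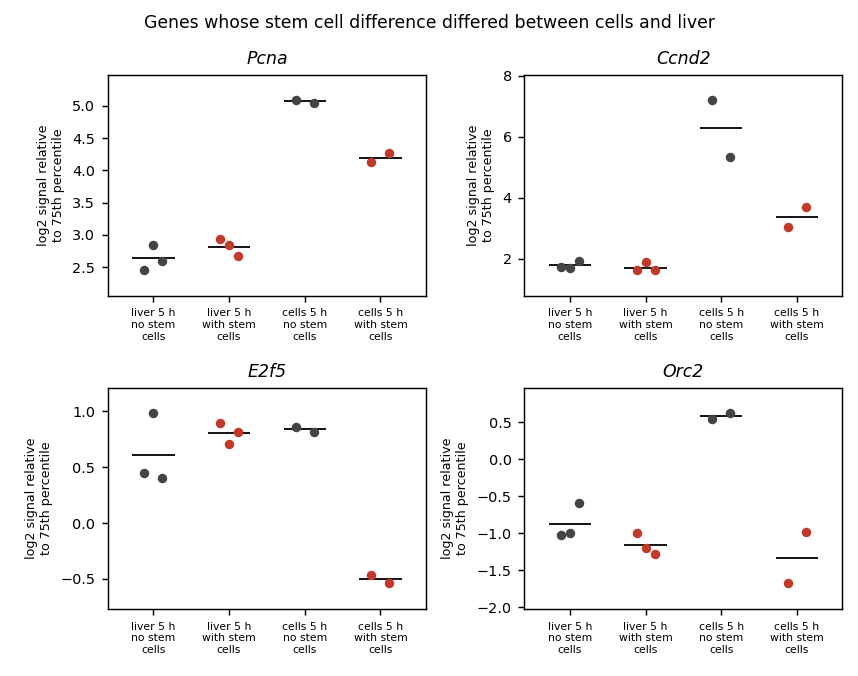
Levels of Pcna, Ccnd2, E2f5 and Orc2 in the 5 h livers and inflammatory cells with and without stem cells, on the log2 scale described above, each array a point and each group mean a line. All 4 genes are lower in the treated cells than in the untreated cells, and their liver groups overlap.

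Within the liver groups the cell cycle genes varied together from mouse to mouse. After removing group means, the mean correlation between pairs of the 30 genes over 12 livers was 0.37, against 0.03 for pairs among 14570 genes, as a description in which all pairs share the same arrays and their scaling. It was 0.67 among Mcm2 to Mcm7, 0.54 among the 7 licensing genes, 0.59 among 4 S to M phase genes, 0.34 among 8 chromosome and spindle genes and 0.26 among the 5 fork and nucleotide genes. In mouse 5 (5 h, no stem cells) 28 of the 30 genes were above their group mean, and in mouse 6 of the same group 0 were. Mice 9 and 1 each had 25 and mouse 13 had 23 above, while mice 10 and 3 each had 6. Pcna, Rrm1 and Tyms varied least, with pooled SDs of 0.133, 0.174 and 0.195, and Cenpe and Kif11 most, at 0.857 and 0.939. Kif11 was well above background on only 3 of the 12 livers, the other 4 genes on all 12. The part of dim signal in these spreads was not tested. 

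Of the other cell cycle genes, Mcm10 had the clearest change between 2 h and 5 h. Mcm10, a replication initiation factor, read 2.37, 2.04 and 3.34 at 2 h and -0.22, 0.12 and 0.36 at 5 h without stem cells, and fell by 2.50 ± 0.35 (limma adjusted p = 0.00313). With stem cells it read 3.26, 2.77 and 3.89 at 2 h and -0.14, -0.27 and -0.39 at 5 h, and fell by 3.58 ± 0.35 (adjusted p = 0.000376). Of all genes, 15.7% were called in either direction between these times without stem cells, and 8.77% higher and 9.67% lower with them. Without stem cells 2 of 39 other replication genes rose and 5 fell, close to that share, among them Pola1 (-1.32), a DNA polymerase subunit, and Rfc5 (-0.87), a clamp loader subunit. With stem cells 1 rose and 6 fell, among them Brca1 (-1.53) and Pold1 (-1.27), the latter a DNA polymerase subunit. Of 7 genes named as CDK inhibitors, Cdkn1c fell (-1.06) without stem cells. With stem cells Cdkn1a (p21) rose by 3.60 ± 0.87 (adjusted p = 0.0196) and Cdkn1b fell (-1.25), and without them Cdkn1a stood at 2.81 ± 0.87 (adjusted p = 0.0546). Of 19 E2F, retinoblastoma and MYC regulators 2 rose (Max, 0.99; Rbl1, 1.12) and 3 fell, among them Tfdp2 (-1.02), without stem cells. With them 1 rose (Max, 0.99) and 2 fell (Mxd4, -1.60; E2f6, -0.55). Of 10 G1 cyclins and kinases Cdk6 (0.94) and Cdk7 (0.93) rose without stem cells and Cdk6 (1.28) with them. Of 32 other mitotic genes Kif22 (0.81) rose and Cenpk (-1.01) fell without stem cells. With them 2 rose, among them Kif22 (1.49), and 2 fell, Cenpk (-0.96) and Ccnf, at least 3.70-fold lower. Of 11 CDC25, WEE1 and checkpoint genes none passed without stem cells and Gmnn, the inhibitor of Cdt1, fell (-1.47) with them. Stem cells changed none of the 118 genes of these 6 lists in the liver by limma's adjusted p at either time. At an unadjusted p under 0.05, 1 was higher and 3 lower at 2 h, against 378 and 438 of all 14584 genes. At 5 h 6 were higher and 4 lower, against 1063 and 745 of all genes.

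Between inflammatory cells and 5 h liver the other lists moved as well. Of all genes tested, 29.4% were higher and 31.8% lower without stem cells. The fit of all arrays tested 135 genes of these lists and the liver fit 118. Genes that the liver fit left out entered mostly or wholly through the cell arrays. For those genes the filter favoured higher signals in the cells, and they add no support to the counts below. Without stem cells 33 of 43 other replication genes were higher and 1 lower. Fen1 (2.82), Asf1b (3.65) and Pold1 (3.58) had the smallest p among them. Of 41 other mitotic genes 28 were higher and 2 lower, with Smc4 at 2.75. Kif15 was at least 4.29-fold and Cenpn at least 2.37-fold higher, but the liver fit had left both out, so they add no support. Of 20 E2F, retinoblastoma and MYC regulators 12 were higher, among them E2f2 (3.63) and Rb1 (2.37), and 2 lower. E2f8, a repressor of the family and one of the lower genes, was at least 79.1-fold lower, and with stem cells at least 60.5-fold lower. Of 11 G1 cyclins and kinases 5 were higher, among them Ccnd2 (4.49) and Ccnd3 (1.73), and 2 lower, among them Ccnd1 (-2.63), so the D cyclins split between the tissues. Of 13 CDC25, WEE1 and checkpoint genes 8 were higher, among them Cdc25b (3.57), Btg1 (3.34) and Fbxo5 (2.99). Of 7 genes named as CDK inhibitors, Cdkn2d (3.33), Cdkn1b (1.45) and Cdkn3 (1.38) were higher. With stem cells 28.4% of all genes tested were higher and 35.7% lower. Of the 43 replication genes 28 were then higher, among them Pold1 (4.59) and Fen1 (2.51), and 2 lower. Of the 41 mitotic genes 27 were higher and 1 lower. In the cells, stem cells changed none of 133 genes of these lists by limma's adjusted p. At an unadjusted p under 0.05, 7 were higher and 20 lower, against 1132 higher and 1441 lower of all 14152 genes. Ccnd2 stood at -2.91 ± 0.65 (adjusted p = 0.154), Orc2 at -1.91 and E2f5 at -1.34 in the cells.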

How the data were processed

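RNA from 12 livers and 4 samples of hepatic inflammatory cells was labelled with Cy3 and hybridised to 16 Agilent mouse arrays of 1 design. The deposited scanner files hold spot intensity on a linear scale, background-subtracted and detrended but not normalized between arrays, per the file headers. The software was Agilent Feature Extraction 10.5.1.1, as the submitters' processing notes also say. The authors' value table holds the same intensity values (largest difference 0). Probe positions are on mm8, per the file headers.

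Control spots (1639 of each array's total, beside 43379 others) and outlier spots (55 to 100 an array) were left out. The 75th percentile of the processed signal (212 to 426) scaled each array, log2 was taken, spots of a probe were averaged and the probe with the brightest mean stood for a gene. Probes took names by accession from RefSeq (23374), by current symbol (6733), by older symbol (2919) or by the design's name (1758), and 6390 had none. Tests covered genes whose probe exceeded the background limit on 3 or more of 12 livers, 2 of 4 cell arrays or 2 of 16 arrays. Limma 3.58.1 in R 4.3.3 (lmFit, eBayes) gave 3 fits of group means: livers (14584 genes), cells (14152) and all arrays (16207), with Benjamini-Hochberg adjustment over all genes tested. The scripts were checked on simulated data.

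The 38 genes, their roles, and the other cell cycle and marker lists were chosen with earlier results of these data known. Named were the genes past the threshold, up to 10 in each direction, or the 3 smallest p-values where fewer than 3 passed, a set of 14 genes of the module described throughout, and the 3 smallest p-values of each other list. An item under this rule is not reported here. Alternatives were normexp with offset 50, quantile and median scaling, no filter, the mean of probes, trend and robust eBayes, array weights, slide as a block, only genes past the filter in both tissues (13108, added after seeing the data), only the arrays compared, and leaving out arrays. Genome annotation of mm8 was not used here, so the exon of a probe is not given.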

Additional observations from a re-analysis of the deposited data

Results flagged for a closer look

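For 5 of 173 cell cycle genes the effect of stem cells differed between inflammatory cells and 5 h liver in the test of the difference itself (limma on all 16 arrays, Benjamini-Hochberg adjusted), where 2.26% of all genes did. These shares lie close together. Over all genes the count went from 367 to 3 under normexp and to 587 under quantile normalization. Pcna, the sliding clamp, had a difference of -1.06 (adjusted p = 0.0384), a call lost under 5 other settings. The others are not among the 38 genes. Their calls were not repeated under other settings, and those of Ccnd2 and Lin54 lie close to the threshold. Ccnd2, a G1 cyclin, differed by -2.83 (adjusted p = 0.0492): it read 1.73, 1.68 and 1.93 in untreated and 1.62, 1.87 and 1.62 in treated liver, and 7.20 and 5.34 in untreated and 3.04 and 3.69 in treated cells. The 2 untreated cell samples stood far apart for Ccnd2, yet both lay above the treated ones. E2f5, a repressor E2F, differed by -1.53 (adjusted p = 0.013), with 0.86 and 0.82 in untreated and -0.46 and -0.54 in treated cells, against 0.41 to 0.98 in untreated and 0.71 to 0.90 in treated liver. Orc2, a subunit of the origin recognition complex, differed by -1.62 (adjusted p = 0.0223), with 0.54 and 0.62 in untreated and -1.68 and -0.98 in treated cells. Lin54, a subunit of the complex that binds CHR elements, differed by -1.25 (adjusted p = 0.0484), with -0.21 and 0.38 in untreated and -1.11 and -1.22 in treated cells. All 5 rest on 2 cell samples a group, whose neutrophil marker sums also differed (143 to 216 untreated, 620 to 670 treated). The part of that difference in these values was not tested.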

How the results depend on the processing

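No paired analysis was possible because the replicate numbers of the labels are not shared between groups. In the livers the slides, with 1 array of each group, gave a block in place of it, which moved no count of genes called by over 1.5 times. Of the alternatives to the counts of genes called, 114 stayed within 1.5 times the value given, 18 were lower and 9 higher, and of those for single genes and medians 729 kept their direction and call, 42 lost the call, 13 gained it, 5 moved and 3 reversed. In the liver without stem cells, the count between 2 h and 5 h was 1 with trend and robust eBayes, 3 with array weights and 0 to 4 on leaving out 1 replicate. In the liver with stem cells it was 5 with array weights (Cdt1, Cenpa, Mcm2, Mcm4 and Tyms) and 3 with only the arrays compared (Cdt1, Cenpa and Nusap1). It was 3 without mice 10 and 13 (Cdt1, Cenpa and Mcm4), and 0 to 1 on leaving out 1 replicate. The stem cell comparison at 2 h had 0 to 1 on leaving out 1 replicate, and that in the cells had 1 with normexp (Pcna, adjusted p = 0.0458). The difference between cells and liver in the stem cell effect was called for 0 of the 38 genes with normexp, quantile normalization, no filter, the mean of probes and array weights. On leaving out 1 of the 5 h livers it was called for 0 to 1 of the 38. In the tissue comparisons normexp lowered the count from 36 to 24 without and from 32 to 22 with stem cells. Aurkb, Bub1, Bub1b and Kif11, all near background in liver, were among those lost in both. E2f1, Foxm1 and Tyms, which passed the filter in both tissues, were also lost in both. Rrm2 was lost without stem cells and Mcm7 with them. The median of all genes with stem cells moved from -0.23 to -0.06 with quantile and 0.19 with normexp. Under normexp 3 values changed sign, none of them called: Nusap1 with stem cells at 2 h (0.15), Kif11 in the 5 h minus 2 h difference (-0.12) and Ccnb1 in the cells minus liver difference (0.35). Signal near background limits the 8 genes dim in the liver and also Kif11, Cdk1 and Top2a there, and 2 arrays a group limit the cells.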
